A study of Arabidopsis thaliana with 30 samples.

Results

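Transcript levels were compared between seedlings of the bdr1,2,3 triple mutant and wild-type seedlings of Arabidopsis thaliana (Col-0) that were grown throughout at 12 °C. The comparison used the 3 bdr1,2,3 and the 3 wild-type libraries that the sample labels place in the cold group of the heat shock experiment, which is 6 of the 30 libraries of the series. The bdr1,2,3 seedlings carried T-DNA insertions in BDR1, BDR2 and BDR3 and the wild type carried none. Both genotypes were 12 days old, grew on plates with 16 h of light per day, and were collected whole, so each value is an average over all seedling tissues. A second pair of groups was moved to 27 °C for 4 h, and another pair was grown for 5 days in the dark at 21 °C. The pair at 27 °C shared the fit with the 12 °C libraries and so took part in the estimate of the spread. Both pairs were used to ask whether a difference at 12 °C was also present elsewhere.

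BDR proteins carry a SPOC domain and the central domain of the elongation factor TFIIS, and in this they resemble negative regulators of transcription elongation. Elongation factors travel with RNA polymerase II or hold it in place, including at the end of a gene. In a compact genome such as that of Arabidopsis, many genes lie close behind another gene on the same strand, and a polymerase that runs past the end of the upstream gene can enter the promoter of the next, which is known as transcriptional interference. The question asked of these libraries was which functions belong to the genes that differed between the genotypes.

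The 3 bdr1,2,3 libraries had 12794881 to 22458726 counted reads, and the 3 wild-type libraries had 6823975 to 16356103. Levels are given in CPM, the read count of a gene scaled to the effective size of its library. Over the 500 most variable genes at 12 °C, the first principal component held 86.3% of the variance and separated the genotypes. No library stood apart from its group on this component, which mostly reflects genotype and so says little of differences within a group. Replicates were separate plates of seedlings. BDR1 had 1.77, 1.66 and 3.65 CPM in bdr1,2,3, against 52.4, 51.7 and 55.5 CPM in the wild type, so every bdr1,2,3 library was far below every wild-type library (log2 fold change -4.53). BDR2 was lower by a smaller margin (log2 fold change -0.66, adjusted p = 0.00142), and BDR3 did not pass the test (-0.06, adjusted p = 0.857, and 0.02 without wild-type replicate 1). The BDR3 transcript level therefore did not separate the genotypes in these libraries. The counts cover the whole gene and do not show whether an intact protein is made.

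Of 19473 genes tested, 890 were higher in bdr1,2,3 (4.57% of those tested) and 1239 were lower (6.36%), at an adjusted p-value under 0.05 (edgeR's quasi-likelihood test, Benjamini-Hochberg adjustment over all genes tested). Most changes were small. The median log2 fold change was 0.45 among the genes that were higher and -0.60 among those that were lower, and 321 higher (1.65% of those tested) and 639 lower genes (3.28%) changed at least 1.5-fold. At least 2-fold changes were found in 149 higher (0.765%) and 368 lower genes (1.89%). The count of higher genes depended on single libraries, with 451 without wild-type replicate 3, 557 without bdr1,2,3 replicate 2 and 593 without wild-type replicate 2. Without wild-type replicate 3 the genes called in either direction numbered 1293, against 2129 (10.9% of those tested) with all libraries. By the annotation, 263 of the higher and 467 of the lower genes overlap another gene, and since the use of strand in counting is not given in the sources used here, their values are uncertain to that extent. Among the genes described here this holds for the 3 BDR genes, the 3 APR genes, SULTR4;2, LHCB3, LHCB1.5, LHCA4, CRD1, FBA3, PGK1, FLC, SPL4, LNK2, ASN1, MCCA, BCAT2, CSD1, CAT2, GPX3, GASA6, MP, TT19, BMY8, ELF7, RPM1, ABCD2 and AT2G01440.

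The genes that fell most had no function in common by annotation. They were taken as the 12 largest falls among protein-coding genes that overlap no other gene, average at least 1 CPM in the wild type and have separate ranges in the genotypes, so that the lack of overlap among them is part of the choice. AT4G11410, annotated as an NAD(P)-binding Rossmann-fold protein, had 0.133, 0.158 and 0.211 CPM in bdr1,2,3, against 26.1, 28.8 and 27.4 CPM in the wild type. All 3 bdr1,2,3 libraries held at most 3 reads of it, so the level was at least 116-fold lower (adjusted p = 3.42e-13). AT4G31310, an AIG2-like protein of a family named after a gene induced during avirulent infection, had 0.576, 0.158 and 0.281 CPM in bdr1,2,3, against 29.8, 32.0 and 28.9 CPM in the wild type, an 89.4-fold lower mean. AT1G09910, annotated as a rhamnogalacturonate lyase, a class of enzyme that cuts pectin, had 0.443, 0.473 and 0.632 CPM in bdr1,2,3, against 27.1, 21.0 and 25.1 CPM in the wild type. For these genes no bdr1,2,3 library came near any wild-type library.

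NdhM was the most abundant gene of this group. It encodes subunit M of the chloroplast NADH dehydrogenase-like complex, which carries electrons around photosystem I. It had 10.7, 8.12 and 10.4 CPM in bdr1,2,3, against 146, 132 and 140 CPM in the wild type, a 14.3-fold lower mean (log2 fold change -3.82 ± 0.14 SE, adjusted p = 1.78e-11). The other members of the group were a ribosomal protein S5 domain protein (AT3G04230, -3.97), a RING/U-box protein (AT1G66650, at least 5.15-fold lower), a gene with no annotated function (AT3G55760, -3.28), and a protein with the domain of phosphatidylinositol glycan class N (AT3G01380, -3.24). They also held a nucleotide-sugar transferase (AT1G70630, -3.10), an F-box-like protein (AT3G20620, -3.03), the vesicle SNARE VAMP723 (-3.02), and a U3 ribonucleoprotein (AT5G08600, -2.98), a class that acts in the maturation of ribosomal RNA. Their levels ran from under 1 to a few CPM in bdr1,2,3.

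**Figure D1:**
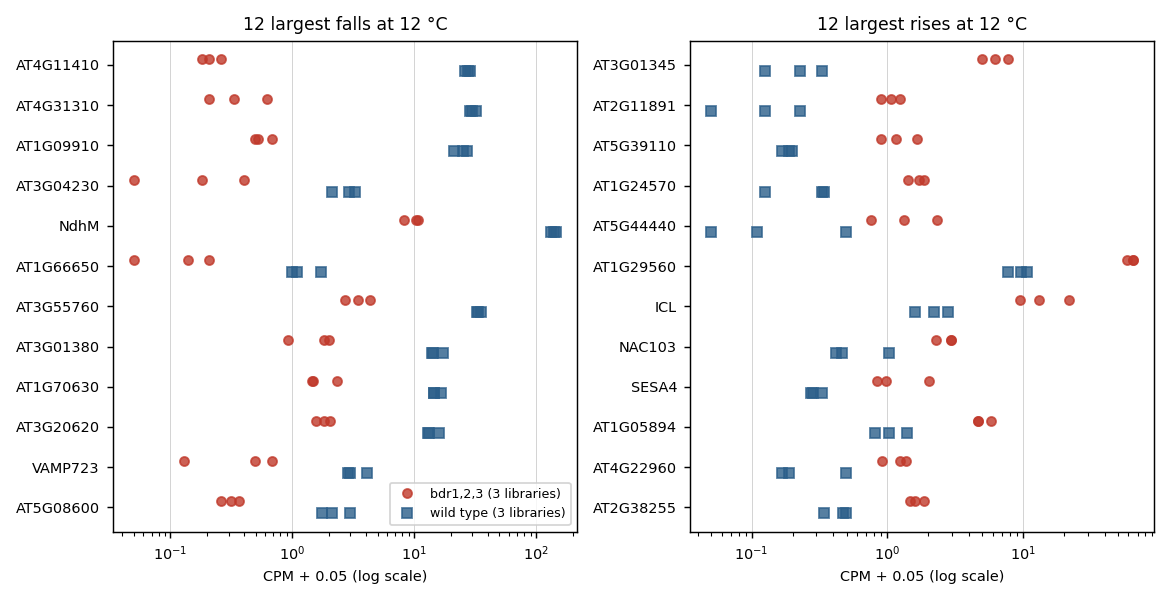
Levels of the 12 genes with the largest falls (left) and the 12 with the largest rises (right) at 12 °C, in CPM plus 0.05 on a log axis, with 1 circle per bdr1,2,3 library and 1 square per wild-type library. NdhM lay near 10 CPM in bdr1,2,3 and between 132 and 146 CPM in the wild type. Genes were chosen to have genotypes that do not overlap.

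What these 12 genes shared was position. Each lay behind a gene on its own strand, at a distance of 2 to 142 bp (median 56.5 bp) by the TAIR10.1 annotation, while 24.4% of the tested genes with an upstream neighbour had such a neighbour within 600 bp. Among all genes lower in bdr1,2,3 this share was 56.1%, and among those that were higher it was 19.3%. Some of the sequences between the paired genes are shown because they hold all the DNA that separates the end of the upstream gene from the start of the gene that fell. They are read on the strand of transcription from RefSeq TAIR10.1. Capitals mark TATAAA, the core of a TATA box, and its reverse complement TTTATA, which overlap in TTTATAAA.
AT4G11410, behind EIF3A, chr4:6947414-6947475, minus strand, 62 bases: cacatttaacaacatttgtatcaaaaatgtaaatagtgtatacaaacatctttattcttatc
NdhM, behind SHM1, chr4:17831620-17831730, minus strand, 111 bases: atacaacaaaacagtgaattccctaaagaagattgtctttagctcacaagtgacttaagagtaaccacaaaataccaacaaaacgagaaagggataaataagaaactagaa
AT3G04230, behind SEC, chr3:1113860-1113913, minus strand, 54 bases: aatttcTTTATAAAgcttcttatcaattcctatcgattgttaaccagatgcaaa
AT5G08600, behind SNRK2.1, chr5:2786114-2786176, plus strand, 63 bases: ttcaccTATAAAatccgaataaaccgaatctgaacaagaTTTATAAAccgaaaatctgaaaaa
AT3G20620, behind UBP14, chr3:7202718-7202747, minus strand, 30 bases: actactttcagttttttttttttttctttt

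The motif TATAAA (both strands searched) was found in the gaps before AT3G04230 and AT5G08600 and in none of the other gaps of the group. In windows of equal length before all protein-coding genes it was found in 16.6% and 18.7%. The upstream genes have general cellular roles. EIF3A is a subunit of translation initiation factor 3, SHM1 is the mitochondrial serine hydroxymethyltransferase of photorespiration, SNRK2.1 is a protein kinase of the osmotic stress family, and UBP14 is a ubiquitin protease. Their own levels differed little, with log2 fold changes of -0.03 for EIF3A, 0.25 for SHM1, 0.00 for SEC, 0.02 for SNRK2.1 and -0.05 for UBP14, and none of these passed the test. Of the 12 upstream genes, AT1G70620, the neighbour of AT1G70630, alone was called (-0.45, adjusted p = 0.0197).

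Genes of sulfur uptake and assimilation were lower in bdr1,2,3 as a group. Plants take up sulfate through SULTR transporters, activate it with ATP sulfurylase (APS genes) and reduce it with APS reductase (APR genes), and several other genes of the list are known for rising when sulfur is scarce. Of 17 tested genes on the list, 12 were lower (70.6%, against 6.36% over all genes tested) and none was higher (none at an unadjusted p under 0.05 or by DESeq2). The median log2 fold change was -0.68, against 0.01 over all genes tested, and 9 to 12 genes of the list were called lower when any library was left out. The summed level of the list was 786 to 813 CPM in bdr1,2,3, against 1077 to 1214 CPM in the wild type. A same-strand gene lay within 600 bp upstream of 2 of the 12 lower genes (16.7%), against 24.4% of the tested genes with an upstream neighbour.

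APR3 had 73.4, 76.8 and 68.2 CPM in bdr1,2,3, against 223, 165 and 186 CPM in the wild type (log2 fold change -1.4 ± 0.15 SE, adjusted p = 2.17e-05). APR1 had 36.1, 32.1 and 39.8 CPM in bdr1,2,3, against 76.0, 71.5 and 64.3 CPM in the wild type (-0.97, adjusted p = 7.75e-06). Both key reductases were thus lower in every bdr1,2,3 library than in any wild-type library, and so was APR2 (-0.68). SULTR4;2, which releases sulfate from the vacuole, had 3.68, 4.26 and 2.11 CPM in bdr1,2,3, against 14.1, 14.1 and 11.6 CPM in the wild type (-1.97, adjusted p = 2.13e-06). BGLU28, a beta-glucosidase linked to the breakdown of glucosinolates for their sulfur, had 0.222, 0.631 and 0.421 CPM in bdr1,2,3, against 4.46, 2.65 and 1.82 CPM in the wild type (-2.90, adjusted p = 0.000158). No bdr1,2,3 library reached the range of the wild type in either gene.

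The sulfur-responsive regulators followed the same direction. SDI1, a repressor of glucosinolate synthesis under sulfur limitation, had 1.37, 1.104 and 2.46 CPM in bdr1,2,3, against 6.24, 4.33 and 4.05 CPM in the wild type (-1.58, adjusted p = 0.000605). LSU2, of the family named for its response to low sulfur, differed by -1.20 with separate ranges. LSU1 differed by -1.59 but its ranges overlapped, with 1.68 CPM in wild-type replicate 2. GGCT2;1, an enzyme of glutathione recycling, differed by -0.93. The genes of the list that did not pass were SULTR1;2 (-0.16), APS1 (-0.18), APK1 (-0.22), SIR (-0.22) and BGLU30 (-0.14), so sulfite reductase (SIR) and the main root uptake transporter SULTR1;2 were not detectably lower. Sulfate uptake is a root function, and in bulk seedlings fewer cells of a type and less RNA per cell cannot be told apart. Root identity genes summed to 87.5 to 99.0 CPM in bdr1,2,3, against 96.0 to 115 CPM in the wild type. None of the 10 passed edgeR's test or DESeq2 (3 had lower and 1 higher values at an unadjusted p under 0.05, and 1 was lower without bdr1,2,3 replicate 3 or wild-type replicate 2, and 2 in a fit to only the 6 libraries at 12 °C). Root hair genes summed to 28.1 to 36.8 CPM in bdr1,2,3, against 32.3 to 33.3 CPM in the wild type, with 0 of 14 called by edgeR or DESeq2 (1 at an unadjusted p under 0.05, and 1 called without bdr1,2,3 replicate 2). The median log2 fold change of the root identity list was -0.2, with 3 of 10 values above 0. That of the root hair list was -0.21, with 6 of 14 values above 0. The paper reports a short-root phenotype for the mutant. The part of root content in the sulfur values was not tested.

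**Figure D2:**
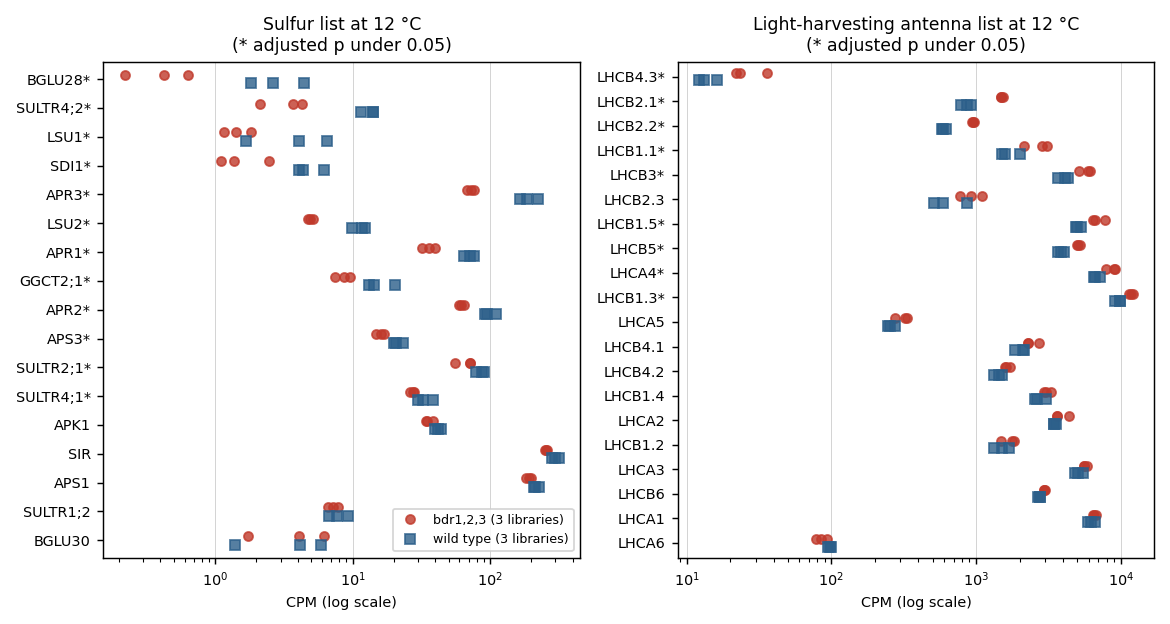
CPM on a log axis for each tested gene of the sulfur list (left) and of the light-harvesting antenna list (right), with 1 circle per bdr1,2,3 library and 1 square per wild-type library, and a star for an adjusted p under 0.05. In the sulfur list 12 of 17 genes were lower in bdr1,2,3, and in the antenna list 9 of 20 were higher.

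Part of the light-harvesting antenna was higher in bdr1,2,3. The light-harvesting antenna binds chlorophyll and passes energy to photosystem II (LHCB proteins) and photosystem I (LHCA proteins). Of 20 tested antenna genes, 9 were higher in bdr1,2,3 (45.0%) and none was lower (none at an unadjusted p under 0.05 or by DESeq2). Over all genes tested 4.57% were higher and 6.36% lower. The median log2 fold change of the antenna genes was 0.27, and 19 of 20 had a positive value. The summed antenna level was 71940 to 73000 CPM in bdr1,2,3, against 57810 to 59370 CPM in the wild type. LHCB2.1 had 1478, 1489 and 1537 CPM in bdr1,2,3, against 921, 786 and 871 CPM in the wild type (0.80, adjusted p = 1.02e-06). LHCB2.2 had 949, 943 and 974 CPM in bdr1,2,3, against 615, 584 and 594 CPM in the wild type (0.68, adjusted p = 6.23e-06). The ranges of both genes were well apart. LHCB3 and LHCB5, single-gene subunits of the photosystem II antenna, were higher by 0.51 and 0.41, and LHCB1.5 by 0.45. The LHCB1 and LHCB2 genes are near-identical copies, so the share of reads given to each copy is uncertain while their direction was common. Of the photosystem I genes, LHCA4 was higher (0.35) and the values of LHCA1, LHCA2, LHCA3, LHCA5 and LHCA6 lay between -0.19 and 0.26 without passing the test. The part of root content in the antenna values was not tested.

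Outside the antenna list, 6 of 40 genes annotated as photosystem subunits were higher, against 4.57% of all genes tested, and none was lower (median 0.13). Over the whole family of 48, 2 were lower at an unadjusted p under 0.05, none by DESeq2, and 1 was called lower without bdr1,2,3 replicate 3. In chlorophyll synthesis 2 of 20 genes were higher (10.0%) and none was lower by edgeR (3 at an unadjusted p under 0.05), while DESeq2 called 4 higher and 2 lower. CRD1, the oxygen-dependent cyclase that closes the fifth ring of chlorophyll, had 1410, 1296 and 1305 CPM in bdr1,2,3, against 771, 928 and 808 CPM in the wild type (0.68, adjusted p = 3.04e-05). CHLH, the large subunit of magnesium chelatase, was higher by 0.40 (adjusted p = 0.00408). Genes of the Calvin-Benson-Bassham cycle, which fixes carbon dioxide, went both ways, with 5 higher and 3 lower of 22 (36.4% called, against 10.9% over all genes tested). The aldolases FBA3 (0.52) and FBA2 (0.43) were higher and the phosphoglycerate kinase PGK1 (-0.41) was lower. Those counts were small enough to move with 1 library: the higher genes numbered 2 without wild-type replicate 3 and 3 without wild-type or bdr1,2,3 replicate 2, and the lower ones 1 without bdr1,2,3 replicate 1 or 3 or wild-type replicate 1.

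Some genes of seed reserves and of their use were higher in bdr1,2,3. The 2S albumins (SESA) and 12S globulins (CRA1, CRB, CRU3) are the storage proteins of the seed and are normally shut off in seedlings. Of 12 tested genes for storage proteins, oil bodies and late embryogenesis proteins, 5 were higher (41.7%, against 4.57% over all genes tested) and none was lower (none at an unadjusted p under 0.05 or by DESeq2). The median log2 fold change was 1.3, or 1.23 with the gene at the floor in the wild type set at its bound and 1 gene at the floor in both genotypes left out. The SESA genes are similar copies whose reads may be shared. Levels were very low, with a sum of 17.7 to 23.7 CPM in bdr1,2,3, against 4.53 to 14.0 CPM in the wild type. CRA1 had 4.92, 5.44 and 5.83 CPM in bdr1,2,3, against 1.41, 0.978 and 3.40 CPM in the wild type (1.31, adjusted p = 0.0178). SESA2 had 1.02, 1.34 and 1.76 CPM in bdr1,2,3, against 0.446, 0.419 and 0.235 CPM in the wild type (1.92, adjusted p = 0.00386). Wild-type replicate 3 held the highest wild-type sum. The count fell to 2 without bdr1,2,3 replicate 2 or wild-type replicate 1, and to 3 without bdr1,2,3 replicate 3 or wild-type replicate 2. CRA1 was not called without bdr1,2,3 replicate 2 or 3 or wild-type replicate 1, and SESA2 not without wild-type replicate 3.

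The glyoxylate cycle turns the acetyl-CoA from stored oil into precursors of sugar. Its key enzymes ICL and MLS were both higher. ICL (isocitrate lyase) had 9.39, 21.9 and 13.1 CPM in bdr1,2,3, against 2.15, 1.54 and 2.76 CPM in the wild type (2.66 ± 0.44 SE, adjusted p = 0.00387). MLS (malate synthase) had 2.44, 4.41 and 3.72 CPM in bdr1,2,3, against 1.04, 1.397 and 1.17 CPM in the wild type (1.54, adjusted p = 0.0055). No library of either genotype reached into the range of the other. Of the 18 genes of this cycle and of fatty acid breakdown, 4 were higher (22.2%, against 4.57% over all genes tested) and 1 was lower (5.56%, against 6.36%). The higher ones numbered 2 without bdr1,2,3 replicate 3 or wild-type replicate 2 or 3, and the lower one, LACS7, lost its call when any library but bdr1,2,3 replicate 3 was left out.

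A list of genes known to rise in the dark or when sugar runs out leaned upward as well, with a median of 0.31. Of 19 tested, 6 were higher (31.6%, against 4.57% over all genes tested, and 8 by DESeq2). None was lower (none at an unadjusted p under 0.05 or by DESeq2). ASN1, an asparagine synthetase that stores nitrogen when carbon is short, had 558, 587 and 690 CPM in bdr1,2,3, against 256, 354 and 402 CPM in the wild type (0.86, adjusted p = 0.00164). MCCA, which degrades leucine, was higher by 0.73 (adjusted p = 0.00398), the branched-chain aminotransferase BCAT2 by 0.73 and the trehalose phosphate synthase-like TPS11 by 0.47. DIN1 (0.71, adjusted p = 0.229) and DIN10 (0.31, adjusted p = 0.122), named for their induction in the dark, did not pass. The subunit KIN10 of the energy-sensing kinase had a value of -0.11 and did not pass either. From 4 to 6 genes of the list were higher when any library was left out.

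**Figure D3:**
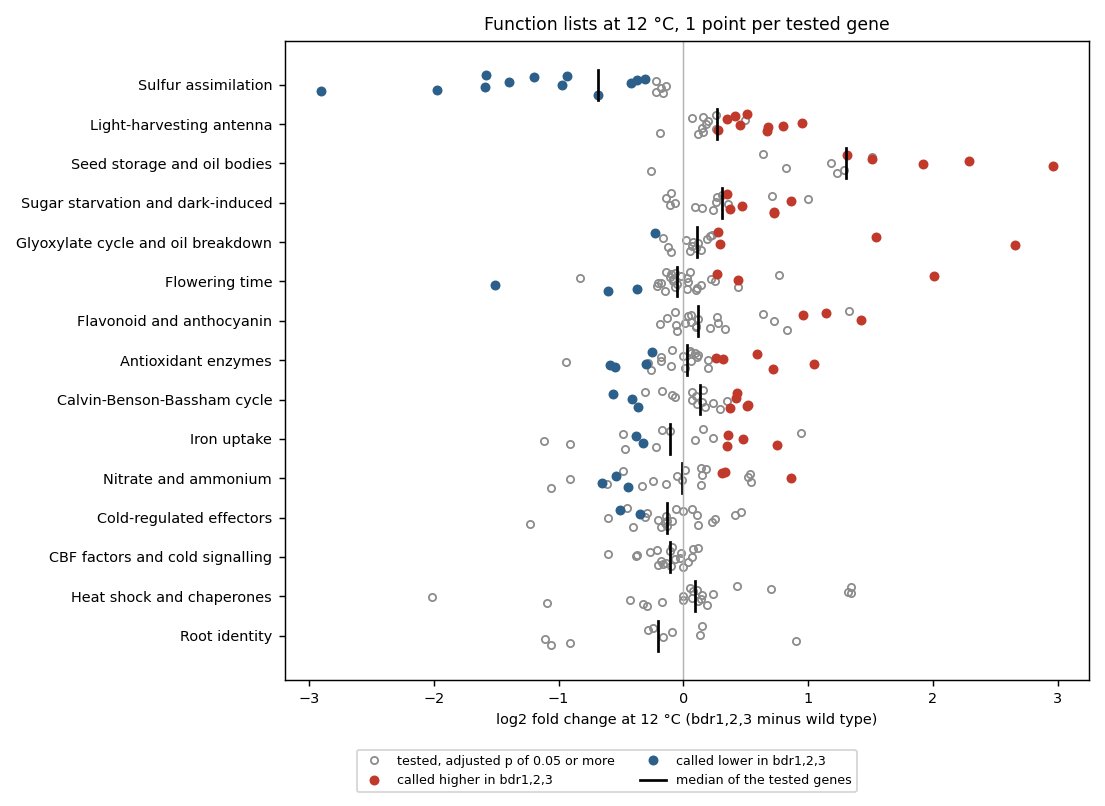
Log2 fold change at 12 °C (bdr1,2,3 minus wild type) of every tested gene on 15 function lists, with 1 point per gene, filled where the adjusted p was under 0.05, and a bar at the list's median. The sulfur list has its median at -0.68 and the seed storage list at 1.3. The medians of the cold-regulated effector, CBF and heat shock lists are -0.13, -0.11 and 0.1.

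Flowering time genes contained some of the clearest single differences. FLC is a MADS-box repressor that delays flowering until winter has passed, and SOC1 is a promoter of flowering that FLC represses. FLC (TAIR10.1 chr5:3173382-3179448, minus strand) had 107, 102 and 102 CPM in bdr1,2,3, against 27.3, 24.3 and 25.4 CPM in the wild type (2.01 ± 0.09 SE, adjusted p = 1.56e-11). SOC1 (chr2:18807505-18811125) had 25.2, 26.8 and 24.99 CPM in bdr1,2,3, against 76.0, 70.1 and 73.2 CPM in the wild type (-1.51 ± 0.09 SE, adjusted p = 9.46e-10). Spread within a genotype was small for both genes beside the gap between genotypes. Of 31 tested flowering genes, 3 were higher (9.68%, against 4.57% over all genes tested) and 3 were lower (9.68%, against 6.36%). Without wild-type replicate 3, 1 was lower. The median of the list was -0.05. LD, a homeodomain protein of the autonomous pathway, was higher by 0.44 (adjusted p = 0.000794), and SPL4, a promoter of the floral transition, was lower by 0.60 on the log2 scale (log2 fold change -0.60, not called without wild-type replicate 3). The FLC relatives FLM (0.10), MAF3 (-0.07), MAF4 (0.05) and MAF5 (-0.14) did not pass.

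The remaining large rises were of scattered function. Over the 12 largest rises, chosen as the falls were, 3 had a same-strand neighbour within 600 bp upstream. Of the tested genes with an upstream neighbour, 24.4% had a same-strand one within that distance. At any distance, 10 of the 12 rises had a same-strand upstream neighbour, against 52.1% of those tested genes. Among all genes higher in bdr1,2,3 that had an upstream neighbour, this share was 49.4%. AT3G01345, with no annotated function, had 7.66, 4.97 and 6.18 CPM in bdr1,2,3, against 0.0743, 0.279 and 0.176 CPM in the wild type, and was at least 15.0-fold higher. AT1G29560, a CCCH zinc finger protein, had 65.1, 64.8 and 58.1 CPM in bdr1,2,3, against 9.66, 7.68 and 10.7 CPM in the wild type (2.71, adjusted p = 3.93e-12). Its upstream neighbour AT1G29550, an eIF4E-like cap-binding protein that ends 44 bp away, was higher too (1.21, adjusted p = 2.16e-07). NAC103, a transcription factor of the unfolded protein response, had 2.88, 2.92 and 2.25 CPM in bdr1,2,3, against 0.372, 0.978 and 0.411 CPM in the wild type (2.37, adjusted p = 0.000241). ICL and SESA4 were also among the 12, and SESA4 was not called without wild-type replicate 3.

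Antioxidant enzymes differed by member. Of 26 tested, 5 were higher (3 without wild-type replicate 2 or 3) and 4 were lower. These shares were 19.2% and 15.4%, against 4.57% and 6.36% over all genes tested. The copper/zinc superoxide dismutases of the chloroplast and the cytosol were both higher. CSD2 had 167, 184 and 217 CPM in bdr1,2,3, against 74.8, 104 and 96.6 CPM in the wild type (1.05, adjusted p = 0.000148), and CSD1 was higher by 0.72 (adjusted p = 0.000172). The catalases, which break down hydrogen peroxide, split. CAT2 had 782, 776 and 931 CPM in bdr1,2,3, against 498, 580 and 580 CPM in the wild type (0.59, adjusted p = 0.000234). CAT1 had 71.0, 76.8 and 99.1 CPM in bdr1,2,3, against 119, 122 and 121 CPM in the wild type (-0.55, adjusted p = 0.000941). The glutathione peroxidases GPX5 (-1.76, adjusted p = 5.62e-10) and GPX3 (-1.29, adjusted p = 5.28e-08) were lower. GPX5 had 9.08, 8.75 and 9.06 CPM in bdr1,2,3, against 30.3, 31.2 and 30.1 CPM in the wild type, with almost no spread within either genotype.

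Of the hormone lists, abscisic acid had 4 higher and 1 lower of 26 (19.2% called), auxin 4 higher and none lower of 25 (16.0%; 1 lower at an unadjusted p under 0.05, none by DESeq2), and jasmonate 1 higher and 3 lower of 26 (15.4%), against 10.9% called over all genes. Single libraries moved these counts. The higher genes of abscisic acid numbered 2 without bdr1,2,3 replicate 1 or wild-type replicate 2 or 3, and its lower ones 2 without wild-type replicate 1 and 0 without wild-type replicate 3. The higher auxin genes numbered 2 without replicate 1 of either genotype, bdr1,2,3 replicate 2 or wild-type replicate 3, and 1 was lower without bdr1,2,3 replicate 3. The higher jasmonate genes numbered 3 without wild-type replicate 1, and the lower ones 1 without bdr1,2,3 replicate 1 or 2 and 5 without wild-type replicate 2. In ethylene signalling, EIN4, a receptor, was the only gene called of 18 tested, with 17.0, 14.3 and 15.0 CPM in bdr1,2,3, against 30.3, 26.8 and 27.0 CPM in the wild type (-0.86, adjusted p = 1.02e-05). In the gibberellin list GASA6, a small secreted protein, was higher (194, 236 and 150 CPM in bdr1,2,3, against 95.4, 90.11 and 84.1 CPM in the wild type, 1.11, adjusted p = 0.000551). In the auxin list the repressor IAA17 (0.51) and the response factor MP (0.45) were higher. JAZ1, a repressor of jasmonate responses, had 16.2, 17.1 and 15.6 CPM in bdr1,2,3, against 31.2, 27.7 and 26.4 CPM in the wild type (-0.80, adjusted p = 0.00942). ACD6, an ankyrin protein of salicylic acid defence, was lower by 1.55 on the log2 scale (log2 fold change -1.55, adjusted p = 0.00519), while PR1 (0.38) and PR5 (-0.09), the usual markers of that response, did not pass. CYP707A3, which degrades abscisic acid, was higher by 0.68 (adjusted p = 0.00935). THI2.2, an antimicrobial thionin, had 126, 109 and 106 CPM in bdr1,2,3, against 56.6, 59.5 and 62.5 CPM in the wild type (0.94, adjusted p = 1.29e-06). The anthocyanin genes DFR (1.1), LDOX (1.42) and TT19 (0.96) were the 3 called of 23 in the flavonoid list, all higher, but none of the list was called without wild-type replicate 3, and 1 was without replicate 2 of either genotype.

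Nutrient genes other than those of sulfur went in both directions. MGD2, a galactolipid synthase used when phosphate is short, had 13.9, 10.6 and 12.6 CPM in bdr1,2,3, against 22.3, 24.3 and 23.6 CPM in the wild type (-0.91, adjusted p = 3.45e-05). In the nitrogen list of 23 genes, 3 were higher (1 without bdr1,2,3 replicate 2) and 3 lower (1 without wild-type replicate 3). With all libraries 26.1% of this list was called, against 10.9% over all genes tested. ASN1, its higher gene with the largest change, was also counted in the list of genes that rise in the dark or when sugar runs out. NRT1.7, a transporter that moves nitrate out of old leaves, had 51.8, 63.8 and 69.8 CPM in bdr1,2,3, against 109, 82.4 and 96.4 CPM in the wild type (-0.65, adjusted p = 0.00105). Of 21 clock genes, RVE4 (0.58, adjusted p = 3.16e-05) and LNK2 (0.44, adjusted p = 0.000891) were higher and PRR3, a pseudo-response regulator, was lower (-0.39, adjusted p = 0.009, not called without bdr1,2,3 replicate 1). The central oscillator genes CCA1 (-0.03), LHY (0.11) and TOC1 (0.11) did not pass. RVE4 and LNK2 act together to activate evening genes. The higher clock genes numbered 4 without wild-type replicate 1. With all libraries 14.3% of the clock list was called, near the 10.9% over all genes tested.

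Genes of the cold response held few calls, as lists of 20 to 24 genes would at the 10.9% called over all genes tested. Of 20 tested genes for CBF factors and cold signalling, none was called by edgeR in either direction with all libraries or with any left out, none was called by DESeq2, none had an unadjusted p under 0.05, and the median was -0.11. CBF1 (-0.60, adjusted p = 0.396), CBF2 (-0.38) and CBF3 (-0.37), the transcription factors that switch on cold acclimation, had values below 0 with wide spread. Of the 20 genes, 5 had a value above 0. Of 24 cold-regulated effector genes, which act downstream, 2 were lower, SUS1 (-0.51) and BMY8 (-0.35), and neither kept its call under every library left out (0 without bdr1,2,3 replicate 1, and 1 without bdr1,2,3 replicate 2 or wild-type replicate 1 or 3). None of these effectors was higher by edgeR (3 at an unadjusted p under 0.05), and 2 were by DESeq2. The median of the effectors was -0.13, with 8 of 24 values above 0. Their summed level was 5765 to 6286 CPM in bdr1,2,3, against 6610 to 6839 CPM in the wild type, so the ranges were separate. COR15A (-0.31, adjusted p = 0.585) and COR47 (-0.18, adjusted p = 0.401), protective proteins of the cold response, did not pass. Of 22 heat shock and chaperone genes none was called by edgeR or DESeq2 (1 was higher at an unadjusted p under 0.05, and 2 were called higher in a fit to only the 6 libraries at 12 °C), with a median of 0.1. Among 27 genes of transcription elongation and 3′ end processing, which includes the machinery that BDR proteins resemble, ELF7 of the PAF complex was called (-0.30, adjusted p = 0.0267), and this call was lost without replicate 1 or 2 of bdr1,2,3 or wild-type replicate 3 (2 genes were called lower without bdr1,2,3 replicate 3). SPT5-2 (-0.03) and TFIIS (0.17) did not pass.

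Families defined by annotated product had calls in both directions. Pentatricopeptide repeat proteins, which process organelle RNA, had 22 lower (9.17%) and 5 higher of 240. The lower count was 10 without bdr1,2,3 replicate 2, where 929 genes were lower over all genes tested, and 14 without bdr1,2,3 replicate 3 or wild-type replicate 1 or 2. Receptor-like kinases had 25 lower (9.58%) and 3 higher of 261, with 13 lower without wild-type replicate 3, 14 without bdr1,2,3 replicate 2 and 16 without bdr1,2,3 replicate 1. Over all genes tested the share of lower genes was 6.36%. Among 116 transporters of the MATE, ABC and MtN21 families 16 were lower (13.8%), with UMAMIT17, an amino acid exporter relative, at -1.31 (adjusted p = 1.68e-06) and ABCD2 at -1.03 (adjusted p = 1.5e-06). The lower transporters numbered 8 without wild-type replicate 1, 9 without bdr1,2,3 replicate 1 and 10 without wild-type replicate 3. Of 60 RNA helicases 6 were lower (4 to 6 when a library was left out). The helicase gene AT2G01440 had 4.65, 3.63 and 4.49 CPM in bdr1,2,3, against 46.1, 46.1 and 47.5 CPM in the wild type (-3.43, adjusted p = 6.26e-12). CYP72A13, a cytochrome P450, had 166, 174 and 186 CPM in bdr1,2,3, against 477, 448 and 494 CPM in the wild type (-1.43, adjusted p = 2.29e-09).

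Of 26 aquaporins, the water channels of membranes, 7 were higher (26.9%, against 4.57% over all genes tested) and none was lower by edgeR or DESeq2 (1 at an unadjusted p under 0.05). The higher ones numbered 4 without bdr1,2,3 or wild-type replicate 3, and 1 was lower without bdr1,2,3 replicate 3. PIP1A was higher by 0.50 (adjusted p = 0.000277) and PIP3 by 0.57 (adjusted p = 0.00196). Of 44 expansins and xyloglucan endotransglucosylases, which loosen the cell wall, 5 were higher and none was lower by edgeR or DESeq2 (none at an unadjusted p under 0.05), with XTH19 at 1.07. The 5 higher genes were 11.4% of this family, against 4.57% higher over all genes tested (10.9% called in either direction). The higher genes of this family numbered 1 without wild-type replicate 3, 2 without bdr1,2,3 replicate 2 and 3 without bdr1,2,3 replicate 1. Disease resistance proteins of the NBS-LRR class, immune receptors inside the cell, had 13 higher (11.2%, against 4.57% over all genes tested) and 8 lower (6.90%, against 6.36%) of 116. Their median was -0.06, with 20 genes in each direction at an unadjusted p under 0.05. AT1G72840 had 23.0, 24.0 and 26.2 CPM in bdr1,2,3, against 8.70, 5.45 and 8.21 CPM in the wild type (1.66, adjusted p = 2.66e-08), while RPM1 was lower (-1.20, adjusted p = 2.26e-07). The higher NBS-LRR genes numbered 7 to 9 when a library was left out, with 7 without bdr1,2,3 replicate 3 or wild-type replicate 2 and 8 without replicate 1 of either genotype or wild-type replicate 3. The lower ones numbered 2 without wild-type replicate 3, 4 without replicate 1 of either genotype and 5 without bdr1,2,3 replicate 2.

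Many of the differences at 12 °C were also present in other conditions, which were tested in separate libraries of the same genotypes. Of the 1239 genes lower at 12 °C, 855 (69.0%) were lower at 27 °C, which is 40.3% of the 2123 lower there (10.9% of all genes tested), and 16 were higher. Of the 1171 also tested in the dark, 534 (45.6%) were lower there, 24.2% of the 2205 lower in the dark (11.3% of those tested), and 39 were higher. For the genes higher at 12 °C, 449 of 890 (50.4%) were higher at 27 °C (27.0% of the 1661 higher there, 8.53% of those tested) and 9 were lower, and 207 of the 868 tested in the dark (23.8%) were higher there (13.2% of the 1569 higher in the dark, 8.04% of those tested) and 63 were lower. A total of 452 genes were lower and 131 were higher in all 3 conditions.

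The function lists differed in this respect. At 27 °C, 11 of 17 sulfur genes were lower and 1 was higher (median -0.75), while in the dark 2 were lower and 1 was higher of 16 (median 0.31). The storage protein list had 9 of 12 higher at 27 °C with a median of 2.43, and the sugar starvation list 11 of 19 with a median of 0.58. In the dark the sugar starvation list had 1 higher and 3 lower. The antenna list had 7 higher and none lower at 27 °C with a median of 0.13, and in the dark 3 higher and 2 lower with a median of 0.00. Of the storage protein list, 5 genes were tested in the dark and none was called by edgeR or DESeq2 (none by edgeR at an unadjusted p under 0.05 either). ICL was higher by 3.92 at 27 °C, and FLC was higher in each condition (2.47 at 27 °C and 1.28 in the dark).

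**Figure D4:**
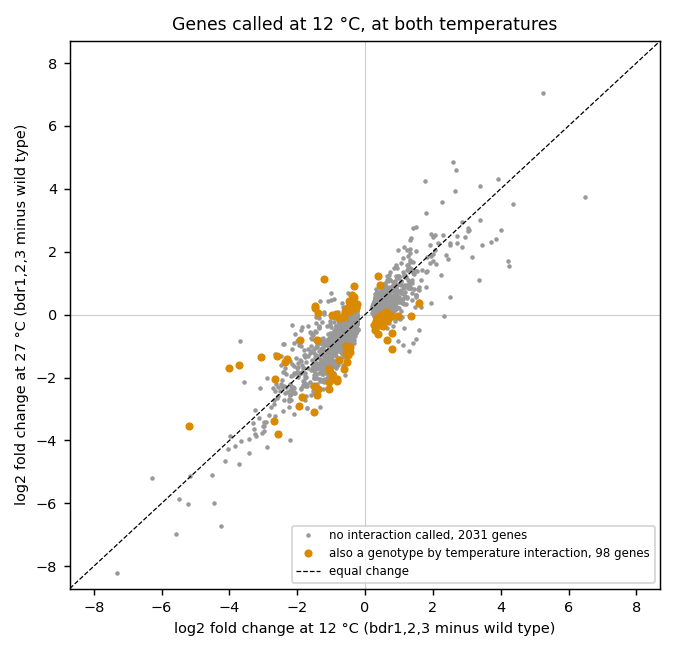
Log2 fold change (bdr1,2,3 minus wild type) at 12 °C on the horizontal axis and at 27 °C on the vertical axis, for the genes called at 12 °C, with 1 point per gene. The 98 genes in orange had a genotype by temperature interaction, and the dashed line marks equal change.

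The size of the genotype effect itself was compared between temperatures with an interaction term (the effect at 27 °C minus that at 12 °C). It was called for 198 genes (1.02% of those tested), of which 98 were also called at 12 °C (28 higher and 70 lower). This number depended on single libraries, with 42 interaction calls without wild-type replicate 3 and 296 without bdr1,2,3 replicate 3. SOC1 averaged 25.7 CPM in bdr1,2,3 and 73.1 CPM in the wild type at 12 °C, and 3.07 ± 0.521 CPM in bdr1,2,3 and 26.2 ± 3.18 CPM in the wild type at 27 °C (SD, n = 3 each). Its fold change was thus larger at 27 °C, with an interaction of -1.59 (adjusted p = 0.000225). LHCB2.1 averaged 998.6 ± 33.8 CPM in bdr1,2,3 and 1037 ± 50.5 CPM in the wild type at 27 °C, a log2 fold change of -0.05, against 0.80 at 12 °C (interaction -0.86, adjusted p = 0.00158). FLC did not pass (interaction adjusted p = 0.0831).

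**Figure D5:**
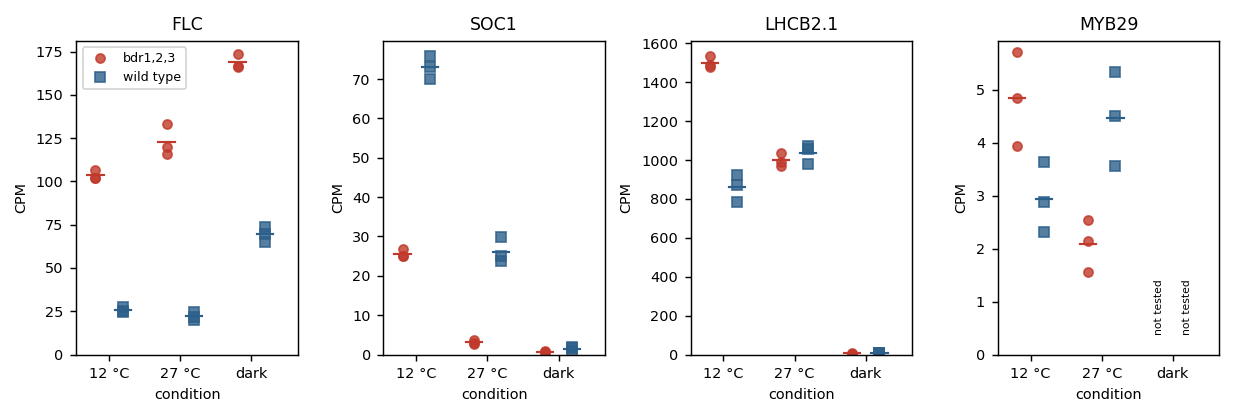
CPM of FLC, SOC1, LHCB2.1 and MYB29 at 12 °C, at 27 °C and in the dark, with 1 circle per bdr1,2,3 library, 1 square per wild-type library and a bar at each mean. FLC was higher in bdr1,2,3 in all 3 conditions, whereas LHCB2.1 differed at 12 °C and not at 27 °C, and MYB29 was not tested in the dark.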

How the data were processed

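The authors prepared stranded mRNA libraries of 3 plates of seedlings per group. Per the submitters' processing notes, reads were processed with STAR 2.5.2b, SAMtools 1.3.1, featureCounts, R 3.3.2 and DESeq2 1.14.1 on TAIR10. They deposited raw counts per gene for 33602 genes, used here. Normalized tables were not used. Whether strand was used in counting is not given in the sources used here.

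Counts were tested with edgeR 4.0.16 in R 4.3.3: filterByExpr, TMM factors and the robust quasi-likelihood test, with a coefficient per group over the 12 heat shock libraries (18 libraries and 19521 genes for the dark). Calls were two-sided and needed a p-value under 0.05 after Benjamini-Hochberg adjustment. CPM used effective library sizes. A group with at most 3 counts in every library was taken as at the floor, and fold changes against it are bounds, which cover counting error only. SE and SD include the spread between replicates. On simulated counts 89% of 2-fold and 47% of 1.5-fold changes were recovered (100 genes each), with 8 false calls in a run of 19316 genes. Only these genes were changed, fewer than were called in the data, and all were above 1 CPM in the wild type. The shares therefore do not cover genes of lower level. DESeq2 1.42.0 was an alternative.

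Genes named are the BDR genes, the 12 largest falls and rises (protein-coding, no overlap with another gene, separate ranges, at least 1 CPM in the higher group), up to 4 called genes per function list and 2 per family by smallest adjusted p, and same-strand upstream neighbours within 600 bp. Other list members were named after their values were seen. Positions come from RefSeq TAIR10.1. The 29 function lists (639 genes matched of 655) and 28 families, matched by words in the product names, were chosen with earlier results of these data known, and some matching words were narrowed after unintended matches were seen. Of the tested genes, 108 had no annotation. The samples were grouped by their titles.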

Additional observations from a re-analysis of the deposited data

Results flagged for a closer look

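For 8 of the named genes the genotype effect differed between 12 °C and 27 °C, by a test of the difference itself (edgeR interaction term, effect at 27 °C minus effect at 12 °C, Benjamini-Hochberg adjustment over all genes tested, n = 3 libraries per group). SOC1 (-1.59) fell further behind the wild type at 27 °C. LHCB2.1 (-0.86) and LHCB2.2 (-0.75) were higher in bdr1,2,3 at 12 °C, and at 27 °C LHCB2.2 averaged 882.5 ± 36.5 CPM in bdr1,2,3 and 926.5 ± 70.3 CPM in the wild type. RD22 (-0.79), a gene induced by drought, averaged 111 ± 9.48 CPM in bdr1,2,3 and 81.3 ± 7.89 CPM in the wild type at 12 °C, and 63.1 ± 7.58 CPM in bdr1,2,3 and 79.9 ± 7.62 CPM in the wild type at 27 °C. MYB29 (-1.88), a regulator of aliphatic glucosinolates, averaged 4.83 ± 0.886 CPM in bdr1,2,3 and 2.94 ± 0.666 CPM in the wild type at 12 °C, and 2.08 ± 0.496 CPM in bdr1,2,3 and 4.46 ± 0.884 CPM in the wild type at 27 °C. The call of MYB29 at 12 °C was lost without replicate 1 or 3 of either genotype. It was the only higher gene of 24 tested on the glucosinolate list at 12 °C (4.17%, against 4.57% over all genes tested). On that list 3 were lower (12.5%, against 6.36%), 0 to 5 when a library was left out, and the median was -0.14. AT1G52370 (0.87), a ribosomal protein L22-like gene, and CYP72A13 (0.63) were lower in bdr1,2,3 at both temperatures, by less at 27 °C. AT4G33740 (0.48), annotated as MYB-like protein X, averaged 59.9 ± 3.96 CPM in bdr1,2,3 and 72.2 ± 3.64 CPM in the wild type at 12 °C, and 83.4 ± 2.40 CPM in bdr1,2,3 and 72.1 ± 3.54 CPM in the wild type at 27 °C. Its call at 12 °C was lost without replicate 1 or 3 of bdr1,2,3 or replicate 3 of the wild type.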

How the results depend on the processing

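Over all genes, other tools and filters kept the counts within 1.5 times, with 883 higher and 1138 lower under DESeq2, 933 and 1225 with DESeq2-style size factors in edgeR, 923 and 1195 without the filter, and 896 and 1329 with only the 12 °C libraries. The median log2 fold change of all genes stayed between 0.00 and 0.01. A minimum of 1.5-fold left 321 higher, 639 lower and 960 in either direction, 161 higher and 474 lower shared with 27 °C, 78 and 258 shared with the dark, and 4 antenna genes higher. Leaving out each library gave 451 to 886 higher, 842 to 1205 lower and 1293 to 2091 in either direction. It gave 284 to 391 higher and 630 to 782 lower shared with 27 °C, and 129 to 205 and 420 to 514 shared with the dark. Interaction calls ran from 42 to 296, sulfur genes lower from 9 to 12, antenna genes higher from 7 to 10 and storage genes higher from 2 to 5. The BDR3 value lay between -0.12 and 0.02 when a library was left out, with 0.02 without wild-type replicate 1, and passed the test in none of these. Interaction calls numbered 289 under DESeq2, 177 with DESeq2-style factors and 233 without the filter. With only the 12 °C libraries and the replicate number as a block, 665 genes were higher and 1128 lower, against 896 and 1329 without the block. In the blocked fit 2 heat shock genes were higher, and 2 root identity genes and 1 aquaporin were lower. Deviations of same-numbered samples correlated at -0.32, -0.20 and 0.23 over 11895 genes, and those of differently numbered samples at -0.17 to 0.39. With 3 libraries per group these values cannot decide whether same-numbered samples shared a batch. Of 150 named genes tested, called or not, 104 kept their sign and side of the threshold under every alternative other than the 1.5-fold minimum, which was not applied to single genes. The other 46 include BDR3, which was not called. Wild-type replicate 2 was the shallowest library (6823975 counts), which limits what can be said of genes near the floor, such as the storage proteins.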
